A study of Mus musculus with 15 samples.

Results

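In pancreatic islets of CBA mice, 2265 of 25197 genomic regions carried an H3K27Me3 peak on regular chow (RD) and on a high-fat diet with the drug O304 (HFD-O304), and carried none on the high-fat diet alone (HFD). These 2265 regions, called members here, were chosen by a rule on the deposited peak lists. Peaks of the 3 diets on chromosomes 1 to 19 that overlapped by at least 1 bp were joined into regions, and a region was kept when it held a peak of RD and of HFD-O304 and no peak of HFD. The members were therefore selected on the presence and absence of called peaks, so the number of members and the strength of their peaks describe the selection and were not tested.

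The study profiled histone marks by ChIP-seq, sequencing of DNA fragments pulled down with an antibody to a modified histone, in islets of male mice of the CBA strain. All 3 groups were of the same strain and tissue. RD mice ate regular chow, HFD mice ate a high-fat diet, and HFD-O304 mice ate the high-fat diet formulated with O304, an activator of every form of AMP-activated protein kinase (AMPK), the cell's sensor of low energy. About 600 islets, hand-picked after collagenase digestion, went into a ChIP experiment, so values are averages over beta cells, other endocrine cells and whatever else was picked. There were 2 samples per mark and diet, and their reads were merged before peaks were called. Each diet therefore contributed 1 H3K27Me3 list and 1 H3K27Ac list, no replicate error could be computed, and no difference between diets could be tested.

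H3K27Me3 is the trimethylated form of a lysine in the tail of histone H3. It is written by Polycomb repressive complex 2, whose catalytic subunit is EZH1 or EZH2, and it is typically found over CpG-rich promoters of developmental genes that a cell keeps silent. Acetylation of the same lysine, H3K27Ac, marks active promoters and enhancers, and a lysine carries only one of these modifications at a time. In beta cells Polycomb is known for holding non-islet and progenitor genes silent, and repeated DNA in somatic cells is more often covered by other repressive marks.

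Most of the members lay in repeated DNA, so their sequences are shown before their values. All were read from the plus strand of the mouse genome build GRCm38. The strongest member was chr13:26990055-26990302, and 68 of the 2265 members aligned to it over at least 150 bp at 80% identity or more, against a background of 2.68% of all regions. It is shown with the other members among the 10 strongest that aligned to it and were no longer than 300 bp. Capitals mark the stretch of 30 bases of the strongest member that more of these 68 members held, on either strand, than any other, 35 of them.
chr13:26990055-26990302: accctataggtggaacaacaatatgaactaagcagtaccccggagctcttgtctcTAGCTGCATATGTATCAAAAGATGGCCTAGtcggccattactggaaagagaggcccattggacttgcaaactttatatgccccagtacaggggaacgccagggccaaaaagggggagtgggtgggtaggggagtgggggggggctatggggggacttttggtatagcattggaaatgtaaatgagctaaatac
chr10:79476317-79476599: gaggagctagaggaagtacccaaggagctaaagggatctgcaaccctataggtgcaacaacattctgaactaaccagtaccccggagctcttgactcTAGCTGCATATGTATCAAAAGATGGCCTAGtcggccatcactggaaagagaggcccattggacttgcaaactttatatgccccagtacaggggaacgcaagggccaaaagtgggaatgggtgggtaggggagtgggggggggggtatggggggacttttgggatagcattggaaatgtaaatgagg
chr7:17411037-17411296: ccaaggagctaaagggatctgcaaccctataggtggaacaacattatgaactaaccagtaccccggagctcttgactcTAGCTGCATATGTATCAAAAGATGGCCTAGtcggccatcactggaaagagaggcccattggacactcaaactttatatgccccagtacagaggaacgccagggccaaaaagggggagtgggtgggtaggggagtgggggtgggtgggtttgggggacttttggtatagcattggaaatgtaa
The capital stretch was not particular to the members. It occurred in 43 of the 2265 members (1.90%), in 1.43% of regions shared by all 3 diets and in 1.66% of all regions.

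A second set of related sequences held 237 members. It is represented by chr1:51433446-51434330, the member that aligned to most others of the set (138), of which the central 300 bases, chr1:51433739-51434038, are shown. Capitals again mark the stretch of 30 bases found in more members of the set than any other of the printed sequence, 103 of the 237.
chr1:51433739-51434038: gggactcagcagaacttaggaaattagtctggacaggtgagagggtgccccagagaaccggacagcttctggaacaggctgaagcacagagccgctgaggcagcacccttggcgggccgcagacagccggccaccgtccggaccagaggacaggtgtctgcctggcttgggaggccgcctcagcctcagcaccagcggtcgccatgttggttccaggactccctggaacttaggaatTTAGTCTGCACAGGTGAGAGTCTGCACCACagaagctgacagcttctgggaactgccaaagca
This stretch occurred in 109 members (4.81%), in 258 of the 8598 regions shared by all 3 diets, in 1.63% of regions found in HFD and HFD-O304 without RD, and in 2.42% of all regions.

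Another kind of sequence was the tandem repeat, a short unit repeated head to tail. The examples are members named in the results below, in introns of Abcc6, Macrod2 and Klhl29, in an exon of Ifi207 and at the promoter of Naf1, in that order. Capitals mark every exact copy of the unit that recurred most often, with repeat periods of 18, 7, 31, 42 and 42 bp. The exact copies numbered 7, 34, 4, 3 and 4. For the members in Klhl29 and Naf1 the central 300 bases are shown.
chr7:46011170-46011431: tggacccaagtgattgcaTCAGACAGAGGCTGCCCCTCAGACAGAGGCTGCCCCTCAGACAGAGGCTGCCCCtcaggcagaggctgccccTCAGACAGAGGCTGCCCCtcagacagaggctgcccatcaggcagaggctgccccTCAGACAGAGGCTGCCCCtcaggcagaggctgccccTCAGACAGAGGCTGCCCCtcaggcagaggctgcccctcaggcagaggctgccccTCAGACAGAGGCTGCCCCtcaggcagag
chr2:141371854-141372152: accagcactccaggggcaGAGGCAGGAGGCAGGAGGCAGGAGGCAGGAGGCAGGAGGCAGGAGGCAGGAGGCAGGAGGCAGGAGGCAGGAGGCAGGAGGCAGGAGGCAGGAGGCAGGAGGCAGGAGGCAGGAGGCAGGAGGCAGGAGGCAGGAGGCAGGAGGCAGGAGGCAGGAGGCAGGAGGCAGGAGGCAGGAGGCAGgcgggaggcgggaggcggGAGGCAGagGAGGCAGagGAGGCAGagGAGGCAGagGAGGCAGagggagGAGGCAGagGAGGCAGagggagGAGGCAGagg
chr12:5307214-5307513: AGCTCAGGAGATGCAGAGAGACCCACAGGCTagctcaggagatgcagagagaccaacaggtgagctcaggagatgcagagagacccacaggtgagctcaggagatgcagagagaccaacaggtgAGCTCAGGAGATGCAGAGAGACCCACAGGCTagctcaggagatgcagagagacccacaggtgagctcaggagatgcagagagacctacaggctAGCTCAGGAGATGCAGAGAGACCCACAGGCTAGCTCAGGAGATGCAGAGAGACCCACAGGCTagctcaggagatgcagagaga
chr1:173729062-173729304: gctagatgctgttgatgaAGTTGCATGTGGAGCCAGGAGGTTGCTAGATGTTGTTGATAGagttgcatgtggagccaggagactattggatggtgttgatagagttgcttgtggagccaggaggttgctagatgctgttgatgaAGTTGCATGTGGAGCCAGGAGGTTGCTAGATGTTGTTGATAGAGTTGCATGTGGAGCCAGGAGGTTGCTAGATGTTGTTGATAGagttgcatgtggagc
chr8:66860491-66860790: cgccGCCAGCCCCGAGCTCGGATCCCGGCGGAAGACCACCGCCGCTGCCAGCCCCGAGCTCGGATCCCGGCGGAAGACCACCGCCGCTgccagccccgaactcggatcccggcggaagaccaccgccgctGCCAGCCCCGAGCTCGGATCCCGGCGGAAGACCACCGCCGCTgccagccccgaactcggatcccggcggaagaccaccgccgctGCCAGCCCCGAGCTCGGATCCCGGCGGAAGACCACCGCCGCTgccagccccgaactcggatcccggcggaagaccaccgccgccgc

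The 2265 members made up 8.99% of the 25197 joined regions. The commonest pattern was a peak in all 3 diets, with 8598 regions (34.1%). A peak in HFD-O304 alone followed with 6871 regions, HFD alone with 2399, RD alone with 2234, HFD and HFD-O304 without RD with 2215, and RD and HFD without HFD-O304 with 615. Members were thus about as many as the regions that HFD and HFD-O304 shared without RD, and outnumbered those that RD and HFD shared without HFD-O304.

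**Figure D1:**
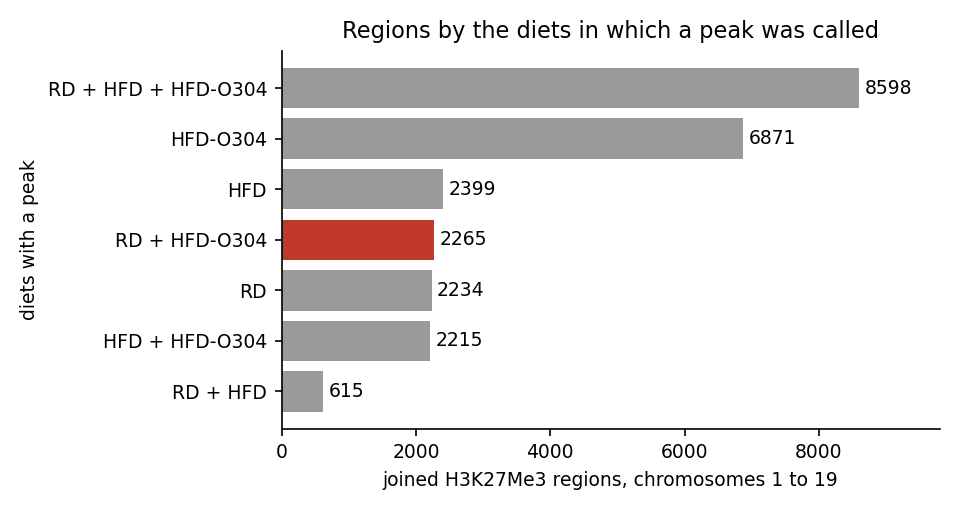
Number of joined H3K27Me3 regions on chromosomes 1 to 19 (horizontal axis) for each combination of diets with a peak (vertical axis). The members, in red, number 2265, close to the 2215 regions of HFD and HFD-O304 without RD and above the 615 regions of RD and HFD without HFD-O304.

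Of the 4499 regions with a peak in RD and none in HFD, 2265 had a peak in HFD-O304, which is 50.3%. The same count in the reverse direction was similar, since 48.0% of the 4614 regions with a peak in HFD and none in RD also had a peak in HFD-O304. The HFD-O304 list was the longest, with 20289 peaks on these chromosomes against 14286 in RD and 14254 in HFD. When every list was reduced to as many of its strongest peaks as the shortest list held, the share of RD regions absent in HFD and present in HFD-O304 was 35.1%. It was 32.9% when presence in RD and HFD-O304 required a −log10 q of at least 5 and absence was still judged against all HFD peaks. With that minimum in all lists it was 51.4%, and with a common lowest fold of 2.76 it was 55.8%. The longer list and the treatment cannot be told apart in this count.

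Absence of a peak in HFD means that no stretch there passed the caller's threshold, and the lists hold no value for HFD at the members. Strength is given here as the fold enrichment of the peak, the number of fragments stacked over it (the pileup, plus 1) over the number a uniform genome would give (plus 1), and as −log10 q, the negative logarithm of the p-value corrected over the genome. The threshold was a q of 0.01 per the file headers. The study's methods text also gives a false discovery rate below 0.01, but lists a less strict value among the caller's options. The lowest −log10 q in the H3K27Me3 lists was 2.19 to 2.26, as the headers' cutoff requires. It fell at a different fold in each because the lists rested on different numbers of fragments. After duplicates were removed the RD list rested on 74870300 H3K27Me3 fragments, the HFD list on 54166902 and the HFD-O304 list on 57324419, and in the same order the lowest fold of any called peak was 2.53, 2.76 and 2.69. Duplicates were 45.7% of the fragments in RD and up to 56.9% of them in the other lists. No input library was used as a control in the peak calling, so signal that an input would also show was not removed from the folds. How much of it the members carry was not tested.

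Most members were weak peaks. Their fold in RD ranged from 2.53 to 15.5 with a median of 2.78 (quartiles 2.66 to 2.97), and in HFD-O304 from 2.69 to 17.8 with a median of 3.05 (quartiles 2.88 to 3.30). The median pileup was 26.5 fragments in RD and 22.8 in HFD-O304, where the weakest called peaks stood at 24 and 20. The median −log10 q was 3.31 and 3.56, and 178 members (7.86%) reached 5 in both diets. For comparison, regions shared by all 3 diets had a median fold of 3.08 in RD and 3.44 in HFD-O304.

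Of the 2265 members, 1056 (46.6%) had an RD fold below the lowest fold that any HFD peak had, and 179 (7.90%) had an HFD-O304 fold below it. In 1143 members (50.5%) both folds were at or above it, a strength at which peaks were listed in HFD. The fold was higher in HFD-O304 than in RD in 1869 members (82.5%), in lists whose lowest callable folds also differed, 2.69 against 2.53. Over the members, the folds of the 2 diets had a Spearman correlation of 0.37 and a Pearson correlation of 0.73. These are correlations across genomic regions, which share depth, base composition and repeat content, and a range narrowed by the selection lies behind them.

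**Figure D2:**
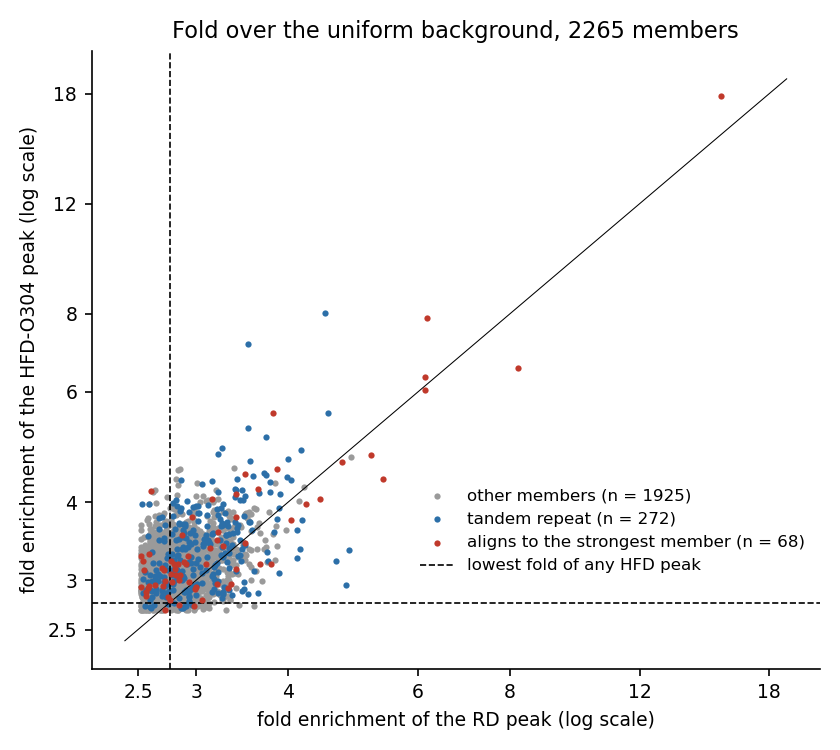
Fold enrichment of each of the 2265 members in HFD-O304 (vertical, log scale) against RD (horizontal, log scale), with members that aligned to the strongest member in red and tandem repeats in blue. Dashed lines mark the lowest fold of any HFD peak, 2.76, and 1056 members lie to the left of the vertical line.

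The selection had sharp edges. The member nearest to an HFD peak, chr11:41089478-41089815, missed it by 3 bp and had folds of 3.31 in RD and 3.08 in HFD-O304. The next, chr16:94676485-94676998, missed by 23 bp. Just outside the rule, chr8:31089590-31090774 overlapped an HFD peak by 5 bp, with an HFD fold of 2.77 beside 2.64 in RD and 2.75 in HFD-O304. A region at the lower edge of strength, chr1:109619789-109620322, was a member with folds of 2.53 and 2.85, while chr9:3309635-3310373 was kept out by an HFD peak at the lowest callable fold of 2.76, with 2.83 in RD and 3.07 in HFD-O304.

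The median distance from a member to the nearest HFD peak was 36.8 kb (quartiles 5.18 to 107 kb). There was an HFD peak within 1 kb of 67 members (2.96%), within 5 kb of 546 (24.1%) and within 10 kb of 724 (32.0%), and 958 members (42.3%) lay farther than 50 kb from any. Members within 10 kb of an HFD peak were longer (median 775 bp) and poorer in G and C (49.6%) than those beyond 50 kb (551.5 bp and 54.9%).  Regions of RD alone lay a median of 44.0 kb from an HFD peak and those of HFD-O304 alone 26.7 kb.

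The members were short. Their median length was 605 bp (quartiles 430 to 1098, longest 5522), they covered 1.91 Mb, and 2247 of them (99.2%) consisted of 1 peak in each diet. Regions shared by all 3 diets had a median length of 1119.5 bp, those of HFD and HFD-O304 without RD 891 bp, those of RD and HFD without HFD-O304 554 bp and those of RD alone 318.5 bp. The members' median GC content was 52.2%, against 57.7% in regions shared by all 3 diets. A GC content of at least 55% together with CpG dinucleotides at 0.6 or more of the number expected from the base composition, a common description of CpG-rich DNA, was found in 5.83% of members, in 10.2% of all regions and in 15.0% of regions shared by all 3 diets. In regions of HFD-O304 alone it was 5.02%, a difference of 0.807 points with an interval of −0.237 to 1.959.

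Members were rarely at promoters. Only 89 of them (3.93%, 95% Wilson interval 3.20 to 4.81) overlapped the 1 kb either side of the start site of a protein-coding gene, against 11.2% of all regions. The share was 15.6% in regions shared by all 3 diets, 20.0% in those of HFD and HFD-O304 without RD, 15.3% in those of RD and HFD without HFD-O304 and 8.19% in those of RD alone. It was nearest in regions of HFD-O304 alone, at 5.85%, a difference of −1.92 points (−2.85 to −0.893). The difference from regions shared by all 3 diets was −11.7 percentage points (95% Newcombe interval −12.8 to −10.6), and from those of HFD and HFD-O304 without RD −16.1 points (−18.0 to −14.3). The promoter share of members was below both in 19 of 19 chromosomes. Among regions with an RD fold of 3.5 or above it was 3.41% of 88 members and 3.26% of those shared by all 3 diets. These intervals treat regions as independent and cover counting error only, whereas related and neighbouring regions are not independent.

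The centre of 1594 members (70.4%) lay between genes, against 63.6% of all regions, and that of 555 (24.5%) in an intron. Regions of HFD-O304 alone were 68.7% intergenic, a difference of 1.67 points with an interval of −0.534 to 3.82. The intergenic share exceeded that of regions shared by all 3 diets by 8.95 points (6.78 to 11.1) and that of regions of HFD and HFD-O304 without RD by 13.3 points (10.5 to 16.0). Among the members with a −log10 q of at least 5 in RD and HFD-O304, the sign of the difference from regions shared by all 3 diets turned, to −2.27 points (−9.66 to 4.49, 178 members), and the difference from regions of HFD and HFD-O304 without RD was 6.84 points with an interval that spanned 0 (−0.802 to 13.9).

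Repeats made up most of the members. At least 50% of the bases were repeat-masked in 1739 (76.8%), against 65.1% of all regions. The share was 65.8% in regions shared by all 3 diets, 50.4% in those of HFD and HFD-O304 without RD, 61.5% in those of RD and HFD without HFD-O304 and 62.6% in those of RD alone. Against regions shared by all 3 diets the lower bound of the difference was 8.96 points. Members exceeded those of HFD and HFD-O304 without RD by 26.4 points (23.7 to 29.1), and were above each of these 4 classes in 19 of 19 chromosomes. Regions of HFD-O304 alone were at 69.8%, a difference of 6.95 points (4.87 to 8.96). With a −log10 q of at least 5 in RD and HFD-O304, the difference from regions shared by all 3 diets turned to −3.36 points (−10.3 to 2.50). Among regions with an RD fold of 3.5 or above, members were also lower, at 64.8% of 88 against 82.5% of those shared by all 3 diets.

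Copy number in the genome was the median number of exact matches, on both strands of GRCm38, to 5 words of 50 bases spaced over the region, and 1911 members (84.4%) had at least 2 copies, against 69.8% of all regions. The median member had 68 copies (quartiles 3 to 530), whereas the median was 43.5 in regions shared by all 3 diets, 3 in those of HFD and HFD-O304 without RD, 8 in those of RD and HFD without HFD-O304, 5 in those of RD alone and 55 in those of HFD-O304 alone. At least 100 copies were found for 46.1% of members, 46.2% of regions shared by all 3 diets and 46.3% of those of HFD-O304 alone, so a copy number this high was not particular to the members. Members exceeded the regions shared by all 3 diets by 12.1 points (10.3 to 13.8) in the share with at least 2 copies, and those of HFD-O304 alone by 11.4 points (9.52 to 13.2). Among regions with an RD fold of 3.5 or above the order turned, with 81.8% of 88 members against 86.8% of those shared by all 3 diets. Reads from such sequence can be placed at any of several copies, so the position of a multi-copy member is uncertain, and what part this has in the presence or absence of its peak was not tested.

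**Figure D3:**
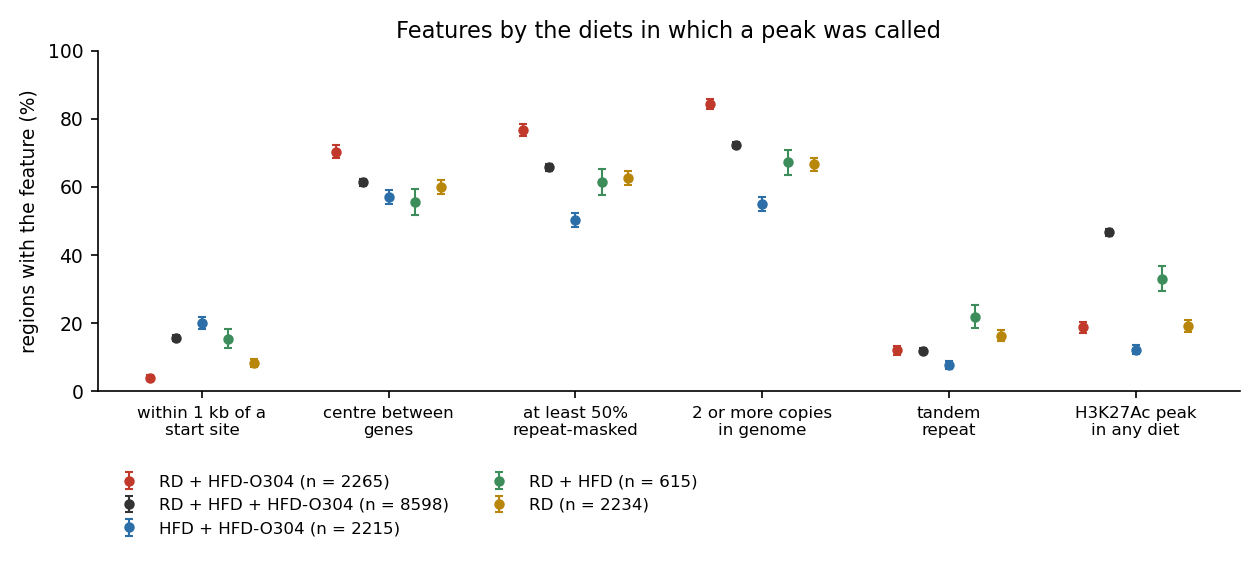
Share of regions (vertical axis, percent) with each of 6 features (horizontal axis) for the members, in red, and 4 other classes of regions, with 95% Wilson intervals as bars. Of the 5 classes plotted, members had the lowest promoter share, 3.93%, and the highest shares of intergenic, repeat-masked and multi-copy regions.

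Families of like sequence were sought among the members only, so no share for other regions stands beside them. When members that aligned over at least 300 bp at 90% identity or more were linked, 1547 (68.3%) had at least 1 relative among the other members and 718 (31.7%) had none. The length asked for could leave shorter members without a link whatever their sequence. The strongest member, of 248 bp, counted among those with none, although other members aligned to it over at least 150 bp. Links were chained, so the members of a family need not all align to each other. The largest family held 1104 members (48.7%), on all 19 chromosomes, with a median length of 783.5 bp, a GC content of 50.9% and 330 copies in the genome. Its GC content was spread, with 380 members at 45 to 50%, 119 at 55 to 60% and 153 at 60 to 65%. The second family held the 237 members (10.5%) introduced above, which were shorter (472 bp) and richer in G and C (60.8%), with a median of 494 copies. The next families held 19, 19, 11, 11 and 9 members. Members of the second family were less often near an HFD peak, 17.3% of them within 10 kb against 32.5% in the largest. No repeat annotation was used here, and the families are therefore left unnamed.

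**Figure D4:**
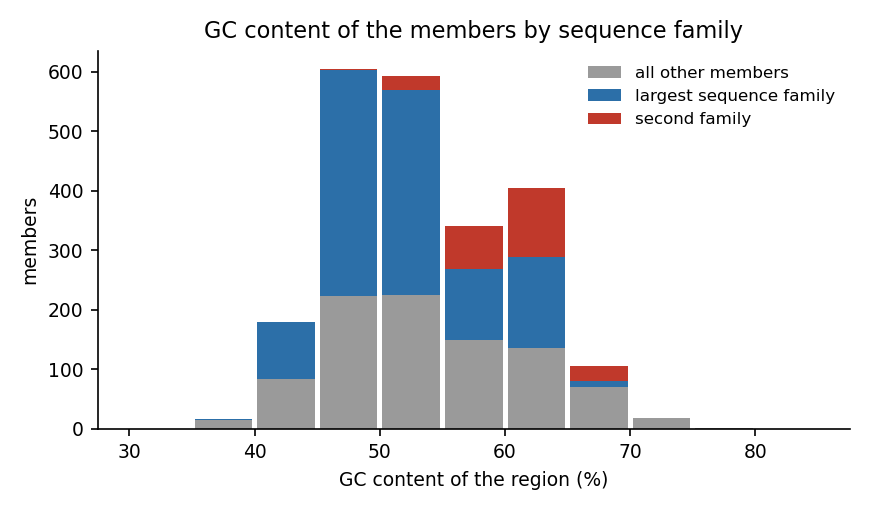
Number of members (vertical axis) by GC content in bins of 5% (horizontal axis), stacked by sequence family. The largest family (1104 members) has a median of 50.9% and the second (237 members) a median of 60.8%.

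Tandem repeats were the second sequence feature examined, and only a minority of the members were of this kind. In 272 of the 2265 members, against a background of 10.3% of all regions, at least 70% of the bases within the central 300 bp were equal to the base 1 repeat unit further on, for a unit of 2 to 100 bp. This share differed from that of regions shared by all 3 diets by 0.122 points (−1.33 to 1.68). It was above that of regions of HFD and HFD-O304 without RD (7.63%) and below that of regions of RD and HFD without HFD-O304 (21.8%). It was higher at stronger RD peaks, from 5.02% of the 1056 members with an RD fold below 2.76 to 40.9% of the 88 members at 3.5 or above. Over the same range it rose from 4.97% to 20.8% in regions shared by all 3 diets. In those of RD and HFD without HFD-O304 it rose from 12.1% to 52.2%, and in those of RD alone from 10.2% to 46.3%, so the rise was not particular to the members. Of the 100 strongest members, 47 were tandem repeats and 17 aligned to the strongest member, together 64, against 340 of all 2265 (15.0%). The 100 strongest regions of the other classes also held many, 54 of those shared by all 3 diets, 56 of those of HFD and HFD-O304 without RD and 52 of those of RD and HFD without HFD-O304.

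The strongest member was also the one with the largest folds in both diets. It was the 248-bp region chr13:26990055-26990302, with a pileup of 152 fragments and a fold of 15.5 in RD and a pileup of 138 and a fold of 17.8 in HFD-O304. It lay between genes, 67.3 kb from the start of Prl, which encodes the hormone prolactin, and 79.9 kb from the nearest HFD peak. The second, chr10:79476317-79476599, lay in an intron of Vmn2r83, a vomeronasal receptor gene, and had folds of 6.17 and 7.88. The other members among the first 5 had folds of 6.04 to 8.20, aligned to the strongest too, and lay between genes. They were chr6:90027540-90028757, 5.65 kb from the vomeronasal receptor gene Vmn1r47, chr19:13352407-13352730, 9.51 kb from the olfactory receptor gene Olfr1467, and chr16:60797366-60797720.

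The sixth, chr7:132880938-132881296, was a tandem repeat of a 33-bp unit in an exon of Abraxas2, with folds of 4.53 and 5.54. The seventh, chr7:46011170-46011431, was the tandem repeat in an intron of Abcc6, which encodes a membrane transporter, with folds of 4.49 and 8.01 and no masked bases. The eighth was chr7:17411037-17411296, with 5.18 and 4.75. The ninth, on chromosome 18 and 6.35 kb from Impact, was the only one of the 10 present in 1 copy, with 4.87 and 4.72. The tenth was the tandem repeat in Macrod2, with 4.17 and 4.85. Of these 10 members 9 were tandem repeats or aligned to the strongest, and 1 was neither.

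Among members with under 50% masked bases, the leading ones after those named were in or near Lrrfip2, Ifi207, Cables1, Clstn1, Klhl29, G530012D18Rik and Llgl1. The member in an intron of Lrrfip2, chr9:111176372-111176729, had folds of 3.99 in RD and 4.38 in HFD-O304. The member in an exon of Ifi207, an interferon-inducible gene, had folds of 3.78 and 4.31. The member in an intron of Clstn1, chr4:149613601-149613996, had folds of 4.21 and 4.23, was present in 1 copy, was not a tandem repeat and lay 147 kb from the nearest HFD peak. Clstn1 encodes calsyntenin-1, a membrane protein that carries cargo along axons. The member in Klhl29 had folds of 3.77 and 4.15, and the last in order, chr11:60676399-60676913, 22.8 kb from Llgl1 and 1.13 kb from an HFD peak, had 3.59 and 3.91.

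The 89 promoter members stood apart from the other members in sequence. Of these, 68 were present in 1 copy, 6 had at least 50% masked bases, and their median GC content was 61.7%. Promoter regions of the other classes were mostly in 1 copy too. They numbered 1226 of 1345 in regions shared by all 3 diets, 159 of 183 in RD alone and 337 of 402 in HFD-O304 alone. The promoter members were weak, with a median fold of 2.71 in RD and 2.95 in HFD-O304, and 59 of them had an RD fold below the lowest fold of any HFD peak. Their median distance to an HFD peak was 42.8 kb, and 17 lay within 5 kb of one. Among single-copy regions the promoter share was 19.2% for members (68 of 354), 51.4% for those shared by all 3 diets (difference −32.2 points, −36.5 to −27.3) and 42.9% for those of HFD and HFD-O304 without RD. It was 41.8% for those of RD and HFD without HFD-O304. Regions of a single diet were near the members, at 21.3% for RD alone (difference −2.10 points, −6.97 to 3.13), 21.9% for HFD alone (−2.70, −7.26 to 2.32) and 18.2% for HFD-O304 alone (1.05, −3.13 to 5.79).

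The strongest promoter member, chr8:69454418-69454690, lay 0.853 kb from the start site of Gm9495 and had folds of 3.77 in RD and 3.85 in HFD-O304. The member at the start of Naf1, which encodes an assembly factor of the ribonucleoproteins that guide RNA pseudouridylation, had 4.11 and 3.26, a GC content of 76.1% and an H3K27Ac peak in all 3 diets. Members at Gm10436, Gm10772 and Gm11562 had folds of 2.98 to 3.36 in RD and of 3.07 to 3.58 in HFD-O304. The member at Nlrc3, an inhibitor of innate immune signalling, had 3.56 and 3.14, and the one at Sp100, a component of nuclear bodies, had 3.33 and 3.22. The member at Spata3, a testis gene, had 3.31 and 3.09.

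Genes known from islet biology and from Polycomb targets were then read from lists chosen with earlier results of these data known. A member lay at the promoter of 92 of 20807 protein-coding genes (0.442%), and between 1 kb upstream and the end of 605 (2.91%). None of the 20 transcription factors of beta cell identity, 15 genes of dedifferentiation and stress, 22 genes disallowed in beta cells or 22 writers, erasers and readers of H3K27 marks held a member in either place, and neither did any of 12 exocrine, 8 immune and 11 endothelial and mesenchymal genes. Of 30 islet hormone and secretion genes, none had one at the promoter and 2 had one in the body, Glp1r, the receptor of the incretin GLP-1, and Pcsk2, a prohormone convertase. Of 11 genes of AMPK subunits and upstream kinases, 1 had one in the body, Prkaa1, the catalytic subunit α1 of AMPK. Of 16 transcription factors of alpha cells, delta cells and progenitors, 1 had one at the promoter, Rbpjl, a cofactor of the acinar cell program. It shares that member, with folds of 2.64 and 2.84, with the neighbouring gene Matn4.

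Genes of development are the best known Polycomb targets. Of 39 Hox genes none had a member at the promoter and 1, Hoxc5, had one in the body (2.56%). Of 157 genes of developmental transcription factor families 4 had one in the body (2.55%) and 2 of these at the promoter (1.27%). The body shares of both lists were near the 2.91% of all genes, and the promoter share of the second list rests on 2 genes against the 0.442% of all genes. At Prrx1, a homeobox gene of mesenchyme, the folds were 2.59 in RD and 3.46 in HFD-O304 and an HFD peak lay 0.688 kb away. At Zic4, a zinc finger gene of the developing brain, they were 2.64 and 2.98 with an HFD peak 2.31 kb away. Zfp423 (2.75 and 2.79) and Zfp600 (2.61 and 2.77) were the only promoters among 383 Zfp zinc finger genes, of which 15 held one in the body, and Zfp423 carried an H3K27Ac peak in all 3 diets. Of 56 clustered protocadherin genes 5 (8.93%) had a member in the body and 1, Pcdha1, at the promoter, with 2.70 and 3.30. Their median length was 90.3 kb, against 17.6 kb for all genes. A member within overlapping genes counted for each of them, so the 5 genes need not stand for 5 members.

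Long neuronal genes held more. Of 44 neuronal adhesion genes 21 (47.7%) had a member in the body and 1, Nkain3, at the promoter, with folds of 3.09 and 3.28. Of 39 neurotransmitter receptor and channel genes 10 (25.6%) had one in the body and 2 at the promoter, Grm5 (2.84 and 3.16), a metabotropic glutamate receptor, and Gria1 (2.58 and 3.03), an AMPA receptor subunit. These genes are long, with a median of 995 kb in the first list and 428 kb in the second, against 17.6 kb for all genes and 114 kb for genes with a member. Of the olfactory receptor genes 1 of 1086 held a member in its body, and of the vomeronasal receptor genes 10 of 325 (3.08%).

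The gene with most members was Dnah8, a dynein heavy chain gene of 253 kb, with 7. Gm3383 had 6 and Cntnap2, a neuronal adhesion gene of 2245 kb, had 5. Ctnna3, Fgfr2, Gm42416, Sytl3, Trhde and Tulp4 had 4 each, and Fgfr2 is annotated over 2961 kb here, so that its members need not lie near the receptor's own exons.

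Members were spread over the genome, at 49 on chromosome 19 to 193 on chromosome 1 and at 6.02% (chromosome 11) to 10.7% (chromosome 10) of a chromosome's regions. Of the 1305 windows of 1 Mb that held a member, 774 held just 1. The window with most, 8 to 9 Mb on chromosome 7, held 19 members among 87 regions, none of them single-copy, over the vomeronasal receptor genes Vmn2r40 to Vmn2r45. The next, 13 to 14 Mb on chromosome 17, held 18 of 93 at a cluster with Tcp10b, Tcp10c, Smok2a and Smok2b. A window at 6 to 7 Mb on the same chromosome held 14 of 91, and 82 of these 91 regions overlapped an H3K27Ac peak. Windows at 5 to 6 Mb on chromosome 14, over a family of predicted genes around Gm3383, and at 146 to 147 Mb on chromosome 4, over Zfp600 and its relatives, held 13 each. In these 5 windows 10 of the 77 members were present in 1 copy.

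A sixth window differed, and was singled out after its values were seen. The window at 114 to 115 Mb of chromosome 10 holds Trhde, which encodes the enzyme that degrades thyrotropin-releasing hormone. It held 12 members, 4 of them in that gene, and all 12 were present in 1 copy. Their folds were 2.57 to 3.03 in RD and 2.69 to 3.24 in HFD-O304, so each was close to the threshold. The window held 76 regions in all, and 70 of these were in 1 copy. Of the 76, 9 were shared by all 3 diets, 26 were of HFD-O304 alone and 17 of RD alone.

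Acetylation of the same lysine was measured in the same tissue and was not used by the rule. H3K27Ac peaks lay at the promoters of 10 of 16 islet endocrine marker genes in each diet, at Ins2, Pdx1, Nkx6-1 and Isl1 in each of them. The 10 genes were not the same in each diet, since Ins1 had a peak in RD and HFD only and Slc30a8 in HFD-O304 only. The hormone genes Iapp, Gcg, Sst and Ppy, and G6pc2, had none in any diet. They lay at 0 of 12 exocrine markers in RD and HFD and at 1 (Krt19) in HFD-O304, and at 0 of 8 immune, 0 or 1 of 6 endothelial and 0 of 5 mesenchymal markers. The deposited acetylation list was shortest for RD (16314 peaks), longer for HFD-O304 (20305) and longest for HFD (21674).

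An H3K27Ac peak of any diet overlapped 425 of the 2265 members (18.8%, 17.2 to 20.4), against 23.7% of all regions. The share was 46.7% in regions shared by all 3 diets, a difference of −27.9 points (−29.8 to −26.0), and 12.1% in those of HFD and HFD-O304 without RD, a difference of 6.62 points (4.51 to 8.73). It was 33.0% in those of RD and HFD without HFD-O304, 19.1% in those of RD alone and 15.5% in those of HFD alone. In those of HFD-O304 alone it was 3.64%, a difference of 15.1 points (13.5 to 16.8). Acetylation was below that of the regions shared by all 3 diets in 19 of 19 chromosomes. Within the single-copy members it reached 39.8%, and the difference from single-copy regions shared by all 3 diets was −3.31 points with an interval of −8.67 to 2.23. In the multi-copy members it was 14.9% against 48.1%. The share changed with the strength asked of the peaks. It was 3.66% when the H3K27Ac peaks had to have a −log10 q of at least 5. When the H3K27Me3 peaks of all lists had to, it was 50.2% of 937 regions. That set differs from the members, because weaker HFD peaks no longer excluded a region. Among the 178 members with that value in RD and HFD-O304 the share was 32.6%. Their difference from regions of HFD and HFD-O304 without RD was 4.89 points, with an interval that spanned 0 (−1.964 to 12.4).

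The members with H3K27Ac most often had it in HFD. It lay there at 312 members (13.8%), in RD at 179 (7.90%) and in HFD-O304 at 206 (9.09%), which is also the order of the lengths of the 3 H3K27Ac lists. H3K27Ac in HFD only was found at 144 members (6.36%), against 5.39% of all regions, in all 3 diets at 85, in HFD-O304 only at 57 and in RD only at 37. Taken over the regions with any H3K27Ac peak, HFD only made up 33.9% of the 425 members (29.5 to 38.5), against 21.2% of the regions shared by all 3 diets, a difference of 12.7 points (8.14 to 17.5). In regions of HFD-O304 alone it was 37.2%, and in those of HFD and HFD-O304 without RD 31.6%. It was lower in regions of RD and HFD without HFD-O304 (22.7%), of RD alone (20.6%) and of HFD alone (13.4%). Among the classes where HFD carried H3K27Me3, a like share was thus found only in that of HFD and HFD-O304 without RD. The acetylation peaks at these 144 members were weak, with a median HFD fold of 2.39 (2.18 to 5.24).

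**Figure D5:**
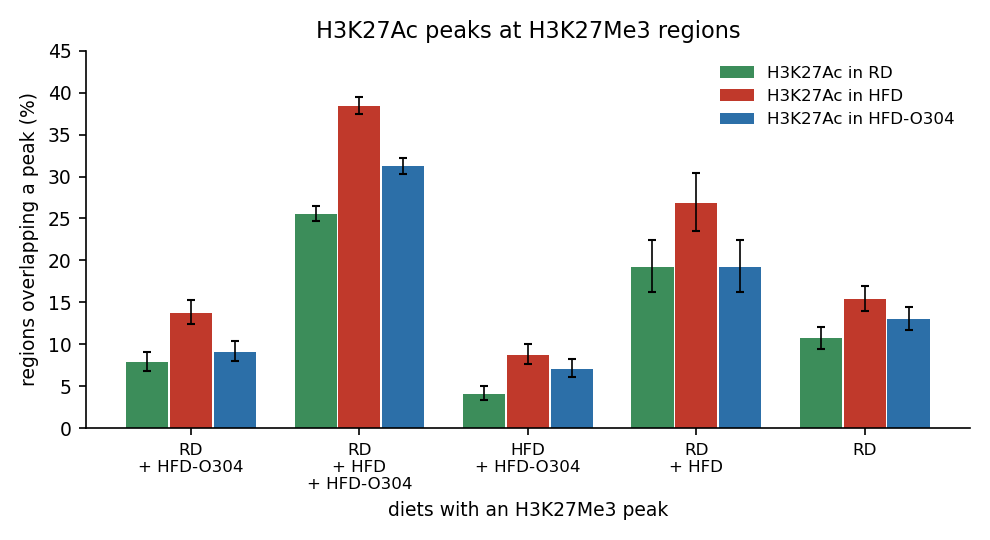
Share of regions that overlapped an H3K27Ac peak (vertical axis, percent) in RD, HFD and HFD-O304 for the members (leftmost) and 4 other classes of H3K27Me3 regions (horizontal axis), with 95% Wilson intervals. At the members it was 7.90%, 13.8% and 9.09%, and HFD was the highest of the 3 in every class shown.

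The member with the strongest HFD-only acetylation was chr6:90027540-90028757, the third strongest member, where the H3K27Ac fold in HFD was 5.24 and the H3K27Me3 fold was 8.20 in RD and 6.55 in HFD-O304. An HFD H3K27Me3 peak lay 2.93 kb away, and its sequence occurred in 7543 copies. The fifth strongest member, chr16:60797366-60797720, also had H3K27Ac in HFD only, at a fold of 2.56. The tandem repeat in Abraxas2 (3.51 to 4.01), the member in Lrrfip2 (3.92 to 4.30) and the one in Clstn1 (2.93 to 3.33) carried it in all 3 diets, in the same place as an H3K27Me3 peak in RD and HFD-O304. Merged islets of many cells do not show whether both marks were on the same chromosome copies, and without an input control the overlap of the marks in repeated sequence was not tested further.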

How the data were processed

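H3K27Me3 and H3K27Ac were profiled by ChIP-seq in CBA islets of 3 diets, with 2 samples per mark and diet (12 samples). The authors merged both samples of a group before peak calling, so that 6 peak lists were deposited. The aligner and build were Bowtie2 and GRCm38 per the labels, with Ensembl release 96 in the study's methods. Per the file headers, peaks were called with MACS 2.1.2 on paired-end fragments in broad mode at a q of 0.01, with duplicates removed, no control file and the local background disabled. The deposited columns used were the pileup, a coverage signal in fragments, the −log10 q, and the fold enrichment, a ratio to 1 genome-wide background per list. The lowest fold and the fragments kept differed between lists and are given in the report. The 3 input samples were not analysed here.

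Peaks of chromosomes 1 to 19 were joined at an overlap of 1 bp. Sequence, soft-masked repeats and GENCODE M21 annotation came from GRCm38, and the gene nearest to a region was the one with the nearest start site. Copies were counted exactly, and families were found with BLAST 2.17.0, using Python 3.11.15, numpy 2.4.6, pandas 2.3.3, networkx 3.6.1 and matplotlib 3.10.9. Joining, copy counting and tandem scoring were tested on simulated data. Shares carry 95% Wilson intervals and differences 95% Newcombe intervals, for counting error only, and no test between diets was run. Intervals and correlations describe regions, which are not replicates.

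The members and gene lists were chosen with earlier results of these data known. Named were the 10 strongest members (by the lower of the −log10 q in RD and HFD-O304), the 10 strongest at promoters, the 10 strongest under 50% masked bases, the 5 strongest with H3K27Ac, members at promoters of listed genes, and the 5 genes and the 5 windows of 1 Mb with most members. Ties at 4 members led to 9 genes being named. The closing section gives the alternatives tried.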

Additional observations from a re-analysis of the deposited data

How the results depend on the processing

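No paired analysis was possible because each group's samples had been merged by the time of peak calling. No sample could be left out either. With a −log10 q of at least 5 in all lists there were 937 members, as weaker HFD peaks no longer excluded a region. They had a median length of 703 bp, a GC content of 60.5%, a promoter share of 2.88%, 79.4% repeat-masked and 50.2% with H3K27Ac. With that minimum in RD and HFD-O304 and absence judged against all HFD peaks there were 178 members, 32.9% of RD regions absent in HFD were present in HFD-O304, and the values were 441.5 bp, 57.9%, 1.12% and 32.6% with H3K27Ac, with 65.7% intergenic. There the intergenic and repeat shares minus those of regions shared by all 3 diets turned to −2.27 and −3.36 points. At a common lowest fold of 2.76 there were 1143 members, 55.8% of RD regions absent in HFD were present in HFD-O304, and the values were 520 bp, 54.9%, a promoter share of 2.27% and 23.3% with H3K27Ac. At equal list sizes the share of RD regions was 35.1%, with 572 bp and 53.0% GC. Joining at 50% of the shorter peak gave 45.8%, across gaps of 1000 bp 53.4%, and across gaps of 5000 bp 55.2%, with 702.5 bp and 78.6% repeat-masked. Without repeat-rich peaks there were 528 members and a share of 37.2%, with 675 bp, 52.9% GC, 15.5% at promoters, 53.6% intergenic and 38.6% with H3K27Ac. Promoters counted upstream only gave 2.65%, and over 2000 bp either side 5.39%. Asking H3K27Ac to cover 50% of the region gave 14.5%, and a −log10 q of at least 5 in its peaks 3.66%. Chosen after seeing the data were the central 300 bp of each region, with H3K27Ac at 16.7%, members farther than 10 kb from an HFD peak, with 554 bp, 54.5% GC, 68.3% intergenic and 79.8% repeat-masked, and the differences between classes under each alternative. The promoter share was below that of regions shared by all 3 diets in 11 of 11 alternatives (−30.2 to −3.26 points), and the H3K27Ac share in 11 of 11. What caused these shifts was not tested. Members lie close to the threshold, so a missing HFD peak at this depth does not show that the mark was absent.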
